A study of Mus musculus with 6 samples.

Results

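The Dlk1-Dio3 domain is an imprinted region of mouse chromosome 12, and the miRNAs described here are those that come from it. Members were chosen by name alone: an array miRNA belonged to the set if its number was one of 48 numbers assigned to the domain, whatever its letter or arm. This gave 101 miRNAs of the 1247 mouse miRNAs on the array, read by 269 probes. Of them, 100 map to chromosome 12, between positions 109563710 and 109743784 of the GRCm38 build, a stretch of 180.1 kb. The remaining one, miR-496b, shares the number of a member of the cluster but maps to chromosome 19 in RefSeq. It was detected on no array and is counted here only because the rule takes it.

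The study asked which miRNAs differ when 3T3-L1 cells become fat cells in the presence of interleukin-6 (IL-6), a cytokine of inflammation and exercise. 3T3-L1 is an established line of mouse embryonic fibroblasts. It stores lipid after a hormone cocktail, which in all 6 samples was isobutyl-methylxanthine, dexamethasone, insulin and rosiglitazone in serum-containing medium. Control samples (n = 4) received no IL-6, and treated samples (n = 2) received recombinant IL-6 at 1 ng/ml from the induction of differentiation, with fresh medium every 24 h. All were taken on day 8, and their miRNA was measured on 1-colour Agilent arrays. The samples model fat cells of 1 mouse line in culture and hold no other cells of fat tissue. Whether the samples of a group are separate cultures is not given in the labels, and the spread that the p-values rest on may be technical.

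In an imprinted domain, a gene is active on the chromosome inherited from 1 parent. In the Dlk1-Dio3 domain the protein genes Dlk1, Rtl1 and Dio3 are expressed from the paternal chromosome, and the long noncoding RNAs Meg3, Rian and Mirg, with the miRNAs and the transcript antisense to Rtl1, from the maternal one. A miRNA represses mRNAs that pair with its seed, bases 2 to 8. Dlk1, at one end of the domain, encodes Pref-1, a protein of preadipocytes that holds back fat cell formation and is lost as 3T3-L1 cells differentiate.

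Of the 101 miRNAs, 5 were detected on at least 1 array, and they are the members on which the values below turn. Detection means that at least 1 probe of the miRNA stood well above background in a share of 0.5 or more of its spots. RefSeq (GRCm38) gave a mature sequence for 97 members. It is printed here for 4 of the detected miRNAs, with the seed in capitals.

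miR-770-3p: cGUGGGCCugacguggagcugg

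miR-370-3p: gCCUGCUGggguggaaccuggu

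miR-494-3p: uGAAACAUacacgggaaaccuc

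miR-134-5p: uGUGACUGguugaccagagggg

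These 4 seeds differ from each other, and among the 1017 array miRNAs with a RefSeq sequence no other one carries any of them. The 97 member sequences held 89 distinct seeds, and the 16 members that share a seed form 8 pairs, none of them detected. For the fifth detected miRNA, miR-487b-3p, the array's own probe is shown because it is what was measured.

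miR-487b-3p, 18-base probe: aagtggatgaccctgtac

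Along the locus, the 5 lie apart from each other. miR-770-3p (chr12:109563744-109563765, plus strand) lies inside the bounds of Meg3. miR-370-3p (chr12:109618305-109618326, plus strand) lies inside Rian. miR-494-3p (chr12:109715367-109715388, plus strand) and miR-134-5p (chr12:109734145-109734166, plus strand) lie before the start of the RefSeq Mirg gene, outside the bounds of Meg3, Rtl1, Rian and Mirg. The 18-base probe of miR-487b-3p maps to chr12:109727386-109727403 by the file's annotation, between these last 2. Of the members, 22 fall in the stretch from Meg3 to the Rtl1 antisense transcript with 1 detected, 4 in Rian with 1 detected, and 74 in the Mirg stretch with 3 detected; miR-496b lies in none of these.

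Most of the cluster gave no measurable signal in these fat cells. The 5 detected members are 4.95% of the set, against 317 of 1247 mouse miRNAs on the array (25.4%). Detected on all 6 arrays were 3 members (2.97%), miR-494-3p, miR-370-3p and miR-487b-3p, against 264 of all mouse miRNAs (21.2%). These shares are descriptions of the lists and carry no test.

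The other 96 members were detected on no array. Their scaled signal, averaged over the 6 arrays, ran from −2.03 to 1.97 intensity units with a median of −0.663, and 71 of the 96 had a mean below 0. Intensities here are background-subtracted, so an empty probe scatters around 0. On the same scale, the 1000 negative control spots of each array had means between 0.694 and 2.24. For 95 of the 96, no spot of any probe was well above background on any array. Undetected members of the stretch from Meg3 to Rtl1 antisense numbered 21 with a median of −0.757, those of Rian 3 with a median of −1.32, and those of the Mirg stretch 71 with a median of −0.631. "Not detected" is a limit of these probes and not a measured absence, and in bulk RNA fewer cells of a type and less RNA per cell cannot be told apart.

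**Figure D1:**
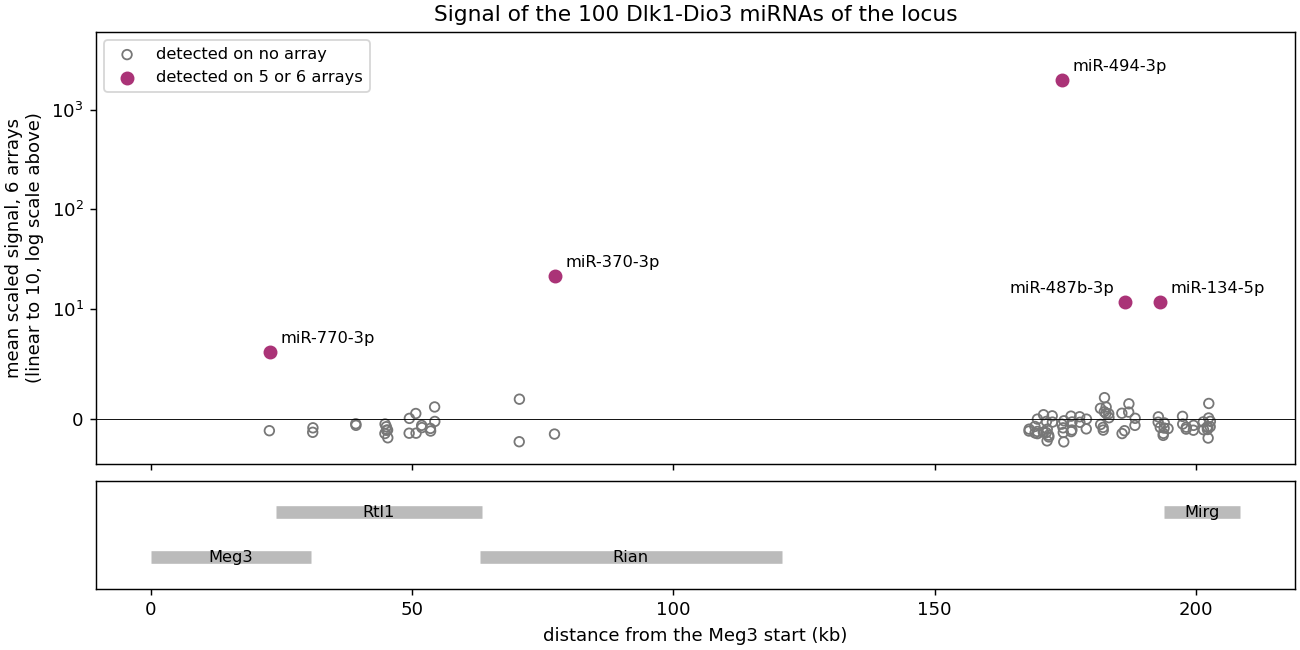
Mean scaled signal over the 6 arrays of the 100 chromosome 12 members (vertical axis in intensity units, linear up to 10 and on a log scale above) against distance from the Meg3 start in kb, with the RefSeq bounds of Meg3, Rtl1, Rian and Mirg below. Filled points are the 5 miRNAs detected on 5 or 6 arrays; the open points, detected on none, lie between −2.03 and 1.97, and heights of different miRNAs are not comparable as amounts because each has its own probes.

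The undetected set includes the miRNAs for which the domain is best known. In the Rtl1 antisense transcript lie miR-127-3p, miR-136-5p, miR-431-5p, miR-433-3p and miR-434-3p, which pair perfectly with the Rtl1 mRNA of the opposite strand and direct its cleavage. These 5, and the next 2, were chosen after their values were seen. The signal of miR-127-3p ran from −1.04 to −0.32 over the 6 arrays, and the mean of miR-431-5p was −1.24, of miR-433-3p −1.24 and of miR-434-3p −1.05. miR-136-5p had the highest mean of the stretch from Meg3 to Rtl1 antisense among undetected members, 1.13. At the opposite ends of the Mirg stretch, miR-379-5p had a mean of −1.05 and miR-410-3p of −0.17. None of the 7 was detected on any array. Printed here are miR-431-5p and miR-410-3p, the first and last of the 7 along the chromosome, and miR-127-3p, the best studied of the Rtl1 antisense miRNAs.

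miR-431-5p: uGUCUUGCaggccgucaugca

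miR-127-3p: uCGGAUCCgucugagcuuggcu

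miR-410-3p: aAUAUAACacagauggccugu

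Of the undetected members, miR-376b-3p, miR-341-3p and miR-369-3p had the highest mean signals, at 1.97, 1.83 and 1.45. miR-376b-3p, of a family whose transcripts undergo A-to-I editing, was the one undetected member with any spot well above background, at most 5.26% of the spots of a probe. Its signal was 0.42, 1.92, 3.94 and 5.99 in controls 1 to 4 and −0.66 and 0.21 in IL-6 1 and 2. Both IL-6 arrays lay below the 4 controls, as they did for 65 (21.7%) of the 299 miRNAs fitted later in the text. The share among undetected miRNAs was not counted. Every value of miR-376b-3p was below the detection level, so no fold is given. Its neighbour miR-376a-3p, chosen after its values were seen, showed −0.35, 0.59, 2.56 and 4.31 in the controls and −0.30 and −0.11 with IL-6, and there the groups overlapped. The pair is shown because the sequences are close relatives.

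miR-376b-3p: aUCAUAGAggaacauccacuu

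miR-376a-3p: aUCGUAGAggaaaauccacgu

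miR-341-3p, which lies in Rian, ranged from 0.39 to 2.47, and miR-369-3p, of the Mirg stretch, from 0.62 to 2.63. In neither did the 2 IL-6 arrays stand apart from the controls.

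A hairpin gives 2 arms, of which 1 is usually kept. For 49 hairpins both arms were on the array: no hairpin had both arms detected, and 5 had 1. miR-494-5p, the other arm of miR-494-3p, had a mean signal of −0.42, and miR-370-5p of −1.32. miR-770-5p, miR-134-3p and miR-487b-5p had means of −1.02, −0.72 and −1.02. Thus each detected member was read on 1 arm only. The share of all array hairpins with both arms detected was not counted, so this is not shown to be a trait of the cluster. The hairpin of miR-494 (chr12:109715318-109715402, plus strand, 85 bases) is printed with the detected arm, bases 50 to 71, in capitals; the undetected arm is bases 17 to 38.

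Mir494 hairpin: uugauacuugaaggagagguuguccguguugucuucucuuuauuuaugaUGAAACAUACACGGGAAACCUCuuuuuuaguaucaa

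The neighbours of this hairpin were also undetected. Upstream, miR-329-3p had a mean signal of −0.24 and miR-329-5p of 0.33. Downstream, miR-679-5p had −0.76 and miR-679-3p −1.18.

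The next question was whether IL-6 changed the cluster as a whole. Counted per array, 5, 5, 3 and 5 members were detected in controls 1 to 4, and 5 and 5 in IL-6 1 and 2. Control 3, which lacked miR-770-3p and miR-134-5p, was the one array that differed. It also had the fewest of all mouse miRNAs detected, 268. Controls averaged 4.5 ± 1 (SD, n = 4) and IL-6 arrays 5 ± 0 (SD, n = 2). The difference, 0.5, gave p = 1 in the exact permutation test (two-sided), which with 15 splits cannot go below 0.0667. Without control 3 the difference was 0, and the detection call that the scanner software makes itself was positive for all 5 on every array. Where every spot of a probe had to be well above background, 2, 2, 1 and 2 members were detected in controls 1 to 4 and 4 and 3 in IL-6 1 and 2. Under that rule the groups did not overlap, and the difference of 1.75 had the smallest p of the exact permutation test, 0.0667. All mouse miRNAs were counted only by the rule of 0.5 of the spots. By it, 268 to 294 were detected on the control arrays and 300 to 313 on the IL-6 arrays, also without overlap. Their number under the stricter rule was not counted, so the members' difference there has no background to be read against.

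The members' share of the summed signal of all mouse miRNAs was 0.253%, 0.236%, 0.304% and 0.793% in controls 1 to 4, and 0.702% and 1.097% in IL-6 1 and 2. Control 4 lay above IL-6 1, so the groups overlapped. Controls averaged 0.397% ± 0.266 (SD, n = 4) and IL-6 arrays 0.899% ± 0.279 (SD, n = 2). This difference of 0.503 percentage points gave p = 0.133 in the exact permutation test (0.267 after Benjamini-Hochberg adjustment over these 2 tests). It was 0.306 without IL-6 2. With normexp background correction the difference was 0.274, but an offset of 50 units per spot then enters both the members' sum and the total. Signal per molecule differs between probes, so this share is one of fluorescence and not of molecules.

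Nearly all of that share was 1 miRNA. miR-494-3p gave 93.1%, 93.0%, 94.2% and 97.2% of the members' summed signal in controls 1 to 4 and 97.5% and 97.9% in IL-6 1 and 2. With miR-494-3p taken out, the other 100 members made up between 0.0165% and 0.0226% of the summed signal on the 6 arrays. In that remainder the control mean was 0.0183% and the IL-6 mean 0.0201%, with overlapping groups.

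For single miRNAs, the comparison of IL-6 with control was fitted over the 299 miRNAs that were detected on all 4 controls or on both IL-6 arrays. All 5 detected members entered, and none of the 96 others. No member passed limma's adjusted p of 0.05, nor an unadjusted p of 0.05. Among all 299, 1 miRNA (0.334%) passed the adjusted threshold, higher with IL-6, and 68 (22.7%) had an unadjusted p under 0.05. The median log2 difference over all 299 was −0.02. The 5 members that entered had to be detected in a group to do so, and 2 of them had estimated differences above 0, 2 below and 1 close to 0.

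**Figure D2:**
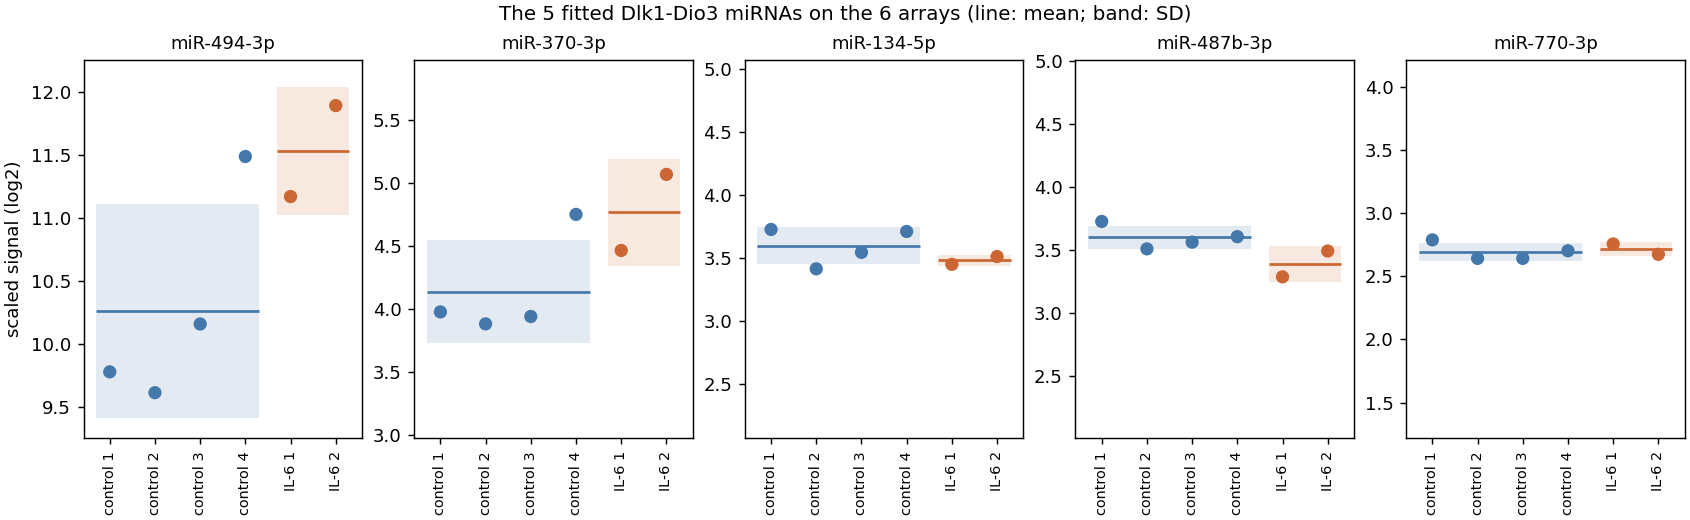
Scaled signal (log2) of the 5 fitted members on each array, 1 panel per miRNA, blue for the 4 controls and orange for the 2 IL-6 arrays, with lines at group means and bands of 1 SD; each vertical axis spans the same number of log2 units but starts at its own level. miR-494-3p and miR-370-3p vary most, with control 4 beside the IL-6 arrays, while the other 3 stay within a narrow band.

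miR-494-3p, processed from the 3' arm of its hairpin, had the largest difference among the members. Its scaled signal was 880.6, 785.3, 1146 and 2878 intensity units in controls 1 to 4, and 2309 and 3808 in IL-6 1 and 2. Controls 1 to 3 lay below both IL-6 arrays, whereas control 4 lay above IL-6 1, so the groups overlapped. The log2 means were 10.26 ± 0.85 (SD, n = 4) and 11.53 ± 0.51 (SD, n = 2). The log2 difference was 1.27 ± 0.56 (SE), 2.41-fold, with a limma adjusted p of 0.241.

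The spread among the controls is part of this result. Its control SD ranked 2 of 299, against a median control SD of 0.13, and its difference with IL-6 ranked 3 of 299. Control 4 exceeded the mean of the other 3 controls by 1.64 on the log2 scale, more than the difference between the groups. Without control 4 the log2 difference of miR-494-3p was 1.67 and its limma adjusted p 0.0398. In that fit it was the 1 member among 23 miRNAs called higher with IL-6 (7.67% of 300), with 8 called lower. So the count of members past the threshold was 0 with all 6 arrays and 1 without that array.

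Position on the slide moved with these values. The 4 controls lay in row 1 of the slide and the 2 IL-6 arrays in row 2, so row and treatment cannot be told apart. Columns 3 and 4 each held 1 control and 1 IL-6 array. Within column 3 the log2 difference of miR-494-3p was 1.01, and within column 4, which held control 4 and IL-6 2, the 2 arrays with the highest signal, it was 0.40. With column as a block it was 0.71, with a limma adjusted p of 0.238. Columns 1 and 2 held controls only, so this estimate rests on the arrays of columns 3 and 4. The software's labelling spike-in signal (log10) was 2.00 on control 4, against 1.72 to 1.82 on the other controls, 1.83 on IL-6 1 and 1.87 on IL-6 2. The part of slide column and of labelling in the result was not tested.

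Within each array the measurement was tight. miR-494-3p was read by a probe of 14 bases (gaggtttcccgtgt) and one of 15 bases (gaggtttcccgtgta), each printed on 20 spots, of which 19 or 20 were used. Both pair with the 3' end of the miRNA, and the part covered by the longer probe is in capitals.

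miR-494-3p, part paired with the 15-base probe: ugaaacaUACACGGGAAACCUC

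Every spot used of both probes was well above background on all 6 arrays, and the CV over the spots of a probe lay between 2.20% and 5.43%. The log2 differences by probe were 1.23 (14 bases) and 1.34 (15 bases), and the order of the arrays was the same in both. The probes overlap almost wholly and are not independent. No other mature miRNA in RefSeq held the full complement of either probe.

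miR-370-3p, which has been reported to act on the fatty acid oxidation gene Cpt1a in liver cells, showed a similar order of arrays at a much lower signal. Its scaled signal was 15.7, 14.7, 15.4 and 26.9 intensity units in controls 1 to 4, and 22.1 and 33.5 in IL-6 1 and 2. Again controls 1 to 3 were lower than both IL-6 arrays and control 4 lay between them. The log2 means were 4.14 ± 0.41 (SD, n = 4) and 4.77 ± 0.43 (SD, n = 2), with a difference of 0.63 ± 0.30 (SE) and a limma adjusted p of 0.265. Within columns 3 and 4 the differences were 0.52 and 0.32. Without IL-6 2 the difference was 0.33. With normexp background correction the difference was −0.0046, but the offset of 50 units used there exceeds the scaled signal of miR-370-3p on every array. Its difference ranked 28 of 299 and its control SD 17 of 299.

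Its 2 probes, of 14 bases (accaggttccaccc) and 15 bases (accaggttccacccc), were detected on 4 and on 6 arrays. Their log2 differences were 0.75 and 0.55. At this signal the CV over spots reached 36.5% for the shorter probe and 21.3% for the longer one, so each array's value is less precise than that of miR-494-3p.

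miR-134-5p, known in neurons for limiting dendritic spine size through Limk1, differed little. Its scaled signal was 13.2, 10.6, 11.6 and 13.1 in controls 1 to 4, and 10.9 and 11.4 in IL-6 1 and 2. Both IL-6 arrays lay within the range of the controls. The log2 means were 3.60 ± 0.15 (SD, n = 4) and 3.48 ± 0.04 (SD, n = 2), and the difference of −0.12 ± 0.10 (SE) had a limma adjusted p of 0.550. It was −0.18 without control 2 and −0.21 without control 3, and turned to 0.18 when arrays were not scaled. Its 4 probes, of 10, 11, 12 and 13 bases, were detected on 1, 2, 2 and 3 arrays, so its detection on 5 arrays came from different probes on different arrays.

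miR-487b-3p was the only one of the 5 fitted members whose groups did not overlap. Its scaled signal was 13.2, 11.4, 11.8 and 12.2 in controls 1 to 4, and 9.75 and 11.2 in IL-6 1 and 2. Both IL-6 arrays lay below all controls, the nearest pair being 11.2 and 11.4. The same held for 65 of all 299 miRNAs (21.7%), and 34.8% had separate groups in either direction. The log2 means were 3.60 ± 0.09 (SD, n = 4) and 3.39 ± 0.14 (SD, n = 2). The difference of −0.21 ± 0.09 (SE) had a limma adjusted p of 0.234. It was −0.11 without IL-6 1 and turned to 0.082 when arrays were not scaled, and within columns 3 and 4 it was −0.28 and −0.11. Only the 18-base probe was detected, on all 6 arrays; the 17-base probe (aagtggatgaccctgta), 1 base shorter at the end, was detected on none, with signals between 5.37 and 7.50 against 14.1 and 18.99 for the 18-base probe.

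miR-770-3p sat at the detection limit. Its scaled signal was 6.92, 5.82, 4.30 and 6.51 in controls 1 to 4, and 6.77 and 6.39 in IL-6 1 and 2. Controls 2 and 3 were below the floor of 6.25 units at which values were set before taking logs. The log2 difference was 0.02 ± 0.06 (SE) with a limma adjusted p of 0.871, and the floor limits what it can show. Of its 4 probes, of 10 to 13 bases, only that of 12 bases (ccagctccacgt) was detected, on 5 arrays.

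miR-770-3p, part paired with the 12-base probe: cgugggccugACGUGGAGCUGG

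The 12-base probe gave 13.7 to 19.1 units over the 6 arrays, whereas the 13-base probe (ccagctccacgtc), which pairs with the same bases and 1 more, gave 4.58 to 6.60. The 11-base probe (ccagctccacg) gave −0.19 to 3.00 and was not detected on any array.

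**Figure D3:**
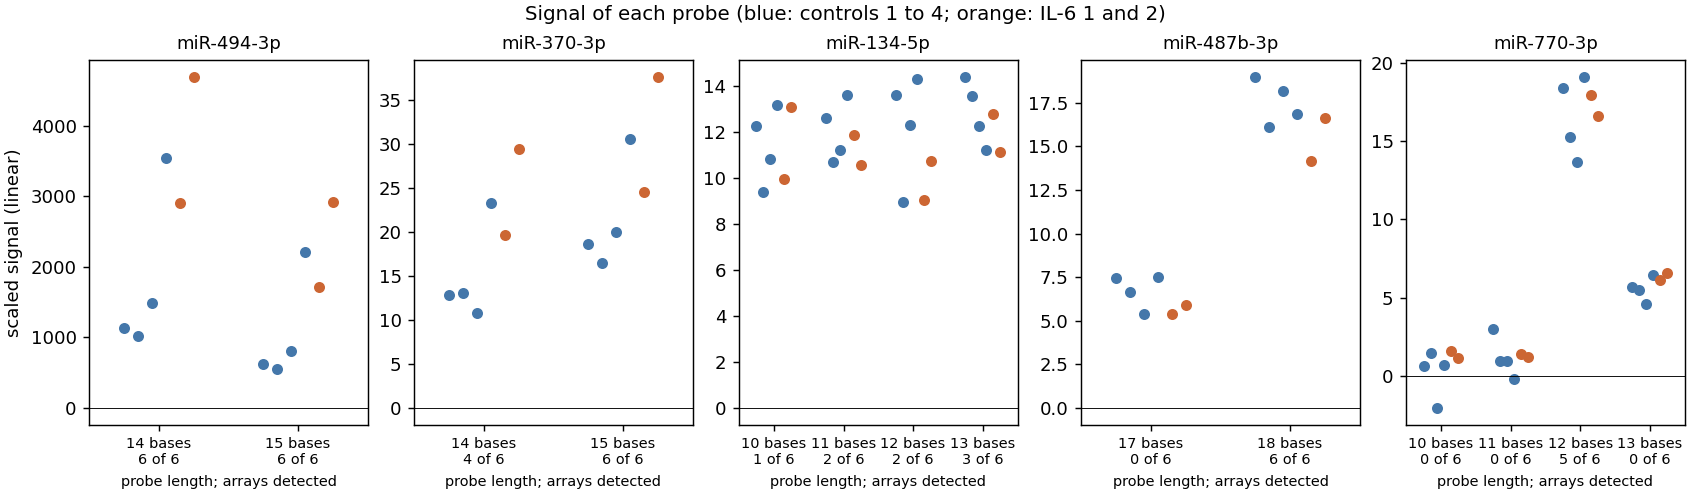
Scaled signal (linear, intensity units) of each probe of the 5 fitted members, with arrays from left to right as controls 1 to 4 (blue) and IL-6 1 and 2 (orange); axis labels give probe length and the number of arrays with the probe detected. In each probe of miR-494-3p and miR-370-3p control 4 lies between the IL-6 arrays, while 1 probe alone carries miR-487b-3p (18 bases) and miR-770-3p (12 bases).

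**Figure D4:**
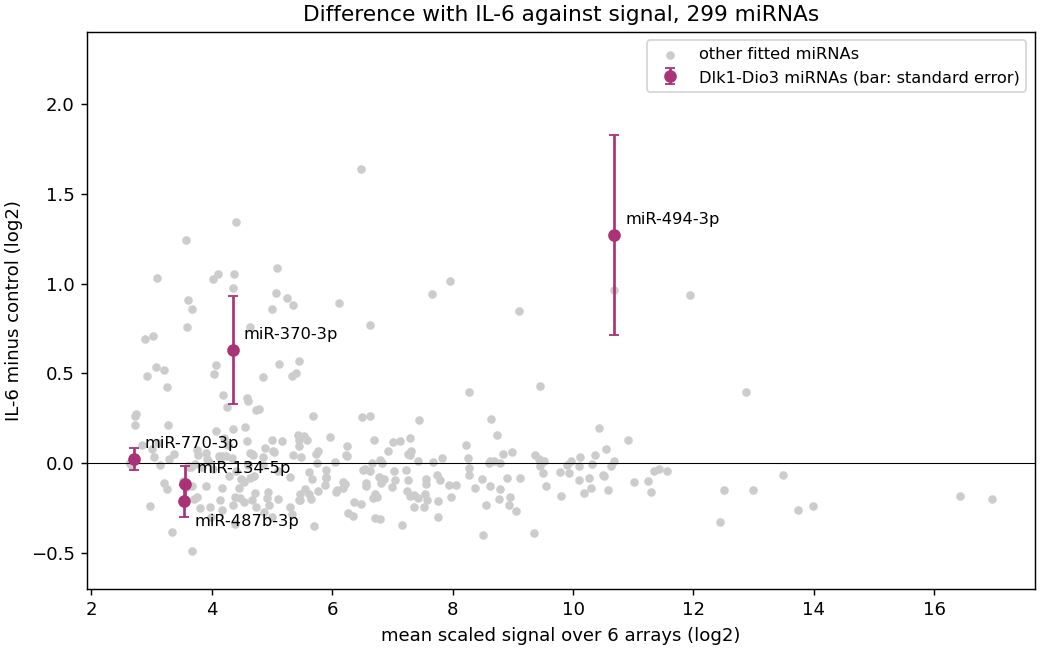
Log2 difference, IL-6 minus control, against mean scaled signal (log2) for the 299 fitted miRNAs, with the 5 members in colour and bars of 1 standard error from limma. miR-494-3p (1.27) and miR-370-3p (0.63) lie above the bulk of points, and miR-770-3p (0.02), miR-134-5p (−0.12) and miR-487b-3p (−0.21) lie within it.

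The domain holds miRNAs outside the 48 numbers, and these give a comparison from the same locus. The array had 13 more miRNAs with a RefSeq position between Dlk1 and Dio3, and 2 of them were detected, each on all 6 arrays. They are shown because they lie within the bounds of Meg3 and Mirg.

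miR-1906: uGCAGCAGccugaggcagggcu

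miR-3072-5p: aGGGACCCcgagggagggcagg

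miR-1906 (chr12:109544588-109544609, plus strand) lies in Meg3, upstream of miR-770-3p. Its scaled signal was 79.9, 72.5, 68.1 and 75.8 in controls 1 to 4 and 70.3 and 82.9 in IL-6 1 and 2, a log2 difference of 0.05 ± 0.10 (SE) with a limma adjusted p of 0.844. miR-3072-5p (chr12:109747893-109747914, plus strand) lies in Mirg, beyond the last member. Its signal was 105, 95.0, 83.9 and 119 in the controls and 102 and 117 with IL-6, a log2 difference of 0.13 ± 0.15 (SE) with a limma adjusted p of 0.679. In both, the groups overlapped, and the highest control was control 1 for miR-1906 and control 4 for miR-3072-5p.

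The profile of miR-494-3p over the 6 arrays was compared with every other fitted miRNA. Each profile was centred on its own mean, and likeness was the mean absolute difference in log2 units over the 6 arrays. The nearest were miR-6243 (0.21), miR-6238 (0.25), miR-3096b-5p (0.29) and miR-466f-3p (0.36), against a median distance of 0.85 to all others. miR-370-3p came next in this order, at 0.42. Nearest to miR-370-3p were miR-5622-3p (0.13), miR-1940 (0.15), miR-1306-3p (0.16) and miR-6360 (0.16), against a median of 0.43. From that side miR-494-3p ranked 125, since its swing is larger. None of these 8 is a member, and the distances describe 6 arrays only.

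**Figure D5:**
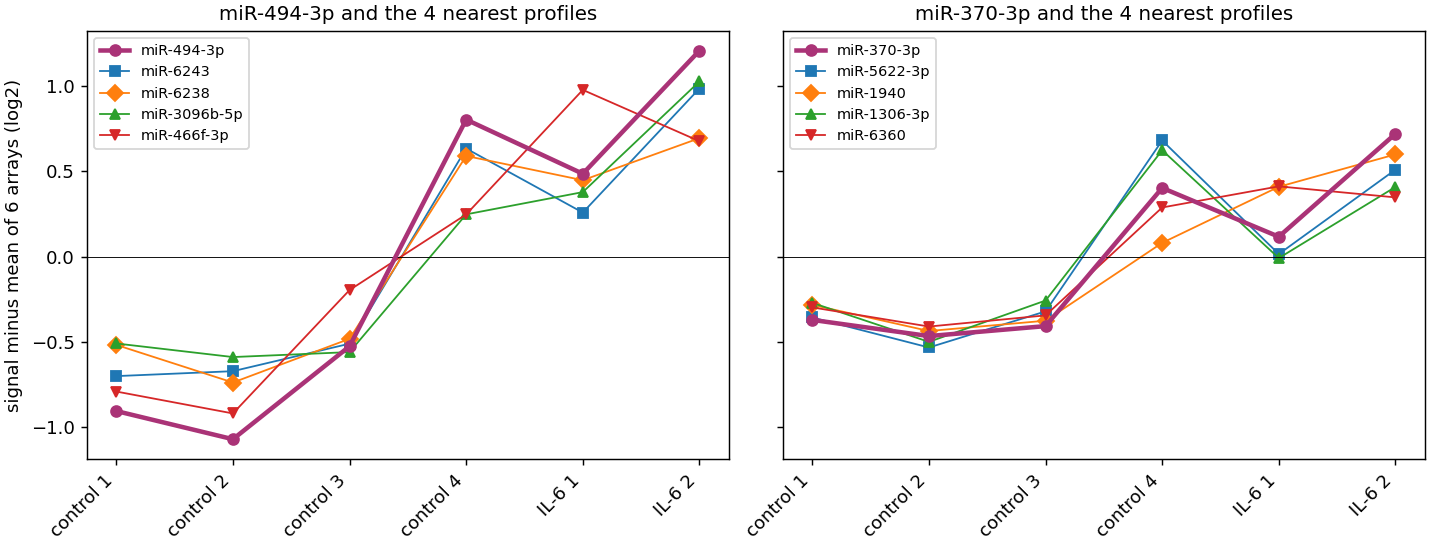
Log2 signal minus the mean of the 6 arrays, per array, for miR-494-3p (left) and miR-370-3p (right) as thick lines with the 4 nearest of the other fitted miRNAs as thin lines. In both panels control 4 and IL-6 2 lie above the mean for every miRNA drawn, and controls 1 to 3 below it.

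Facts of the whole series that bear on these values are few. miRNAs of fat cell differentiation were detected on all arrays (6 of 6 listed). Their summed signal was 5629 to 6513 in controls and 5485 and 5517 with IL-6, below every control, and its part in the members' values was not tested. Of the 6 listed for fibroblasts and mesenchyme, 4 were on the array under the listed name, and these were also detected on all arrays. Their summed signal was 4389 to 5368 in controls and 4627 and 5149 with IL-6, so the groups overlapped. The listed names miR-145-5p and miR-21-5p matched none, though miR-145a-5p and miR-21a-5p were on the array and fitted. Of the lists for skeletal and heart muscle (7), blood cells (6), liver (1), endothelium (2) and epithelium (5), none was detected, and of that for neurons 1 of 5, miR-219-5p. The summed signal of the blood cell list was 3.87 to 5.84 in controls and 2.22 and 3.23 with IL-6, with every listed miRNA undetected. That of the neuron list was 31.5 to 35.4 in controls and 25.8 and 31.8 with IL-6, and its part in the result for miR-134-5p was not tested. No spot was saturated, and 3.73% to 4.37% of spots per array were left out as uneven or as outlying among the spots of their probe.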

How the data were processed

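Per the labels, total RNA (100 ng, RNA integrity number 9.5 to 10.0) was labelled with Cy3. Per the submitters' processing notes, Agilent Feature Extraction 10.10.1.1 turned scans into spot values. The deposited intensity values, per the file headers, have a spatially fitted background subtracted and are not normalized between arrays. Flags deposited by the authors for each spot (a kind of value other than signal) say whether it was above background, uneven or outlying. The deposited series table holds the scanner's total signal per probe (largest difference 0), linear and not centred.

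Outlying and uneven spots were left out and spots of a probe averaged. Arrays were scaled by the 75th percentile of 502 probes detected on all arrays. Probes of a miRNA were averaged, set to a floor of 6.25 and log2-transformed, which understates differences of dim miRNAs. limma 3.58.1 in R 4.3.3 (lmFit, eBayes with a trend) was fitted to 299 miRNAs on all 6 arrays, two-sided, with Benjamini-Hochberg adjustment; the number of arrays limits the precision. The fit was tested on simulated data. Single values were compared with exact permutation tests. Summed signals count values below 0 as 0. Sequences and positions are RefSeq's (GRCm38); 97 of 101 members matched, and miR-376c-3p, miR-485-5p, miR-487b-3p and miR-539-3p are named only.

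The text names every fitted or detected member, the 3 undetected members with the highest mean signal, the 4 nearest profiles of the 2 most variable fitted members and every detected miRNA of other imprinted loci. Other names are said to be chosen after their values were seen, are other arms or neighbours of these, or have a position between Dlk1 and Dio3. A few belong to the cell type lists. Members, lists and tests were chosen with earlier results of these data known. Alternatives covered scaling, background correction, probe summary, detection rule, floor, slide column, replicate number and each array left out in turn.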

Additional observations from a re-analysis of the deposited data

Results flagged for a closer look

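miR-370-3p stood apart in control 4. The gap from its log2 signal there (4.75) to the nearest other control (3.98) was 0.891 of the range of the 4 controls, above Dixon's 95% critical value. The members' share of summed signal, taken on a linear and not a log2 scale, did the same. There the gap from control 4 (0.793%) to control 3 (0.304%) was 0.878 of the range of the controls. miR-494-3p, which gives nearly all of that share, was not flagged by this rule on its log2 signal. For the number of members detected, control 3 (3, against 5 on the others) was the array apart, with a ratio of 1; as the other 3 counts are tied, the ratio is 1 for a difference of any size and says nothing about how unusual it is. For values without ties, chance gives about 1 such group in 20. Over all 299 fitted miRNAs, 20 (6.69%) had such an array among the controls, 5 (1.67%) with control 4 high and 9 with control 4 low.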

How the results depend on the processing

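Over 20 alternatives, the count of members past limma's adjusted threshold was 0 in 18. It was 1, miR-494-3p, with no scaling between arrays (log2 difference 1.56, adjusted p 0.0186, among 34 called higher, 11.4% of 299, and 0 lower), and 0 to 1 when each array was left out in turn (1 without control 4). Without scaling the median of all fitted miRNAs moved to 0.27, and relative to it miR-494-3p was at 1.30 and miR-370-3p at 0.65. In the fits that kept both IL-6 arrays, the limma adjusted p of miR-494-3p ran from 0.0186 to 0.429. Its log2 difference ran from 0.40 (within slide column 4) to 1.83 (replicate block). Only replicate numbers 1 and 2 occur in both groups, so controls 3 and 4 do not enter the estimate of 1.83. Whether replicate numbers pair the samples cannot be told from these values. Same-numbered arrays deviated with correlations of 0.06 and −0.34, and arrays that share slide column 3 or 4 with 0.41 and 0.51. With 2 IL-6 arrays, the deviation of one mirrors that of the other, so these correlations are not independent. With the replicate block, on 1 residual degree of freedom, miR-494-3p had a limma adjusted p of 0.174, 0 members were called, and calls over all miRNAs went from 1 to 0.

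The difference in members detected, 0.5, was 0 by the scanner's call, 0 with any spot well above background, 1.75 with all spots well above background, 2 within slide column 3, and 0 to 0.67 with each array left out. The difference in share of summed signal stayed positive in all 13 alternatives, from 0.274 (normexp, with its offset in every sum) to 0.700 percentage points. A fit without an IL-6 array assumes that the lone one left varies like the controls. Directions turned as follows. Without scaling, miR-134-5p was at 0.18 and miR-487b-3p at 0.082, both below that setting's median. With normexp and its offset of 50 units, miR-370-3p was at −0.0046 ± 0.048 (SE). This offset understates the differences of dim miRNAs, and miR-134-5p and miR-487b-3p were at −0.020 and −0.021 in that setting. miR-770-3p, at the floor on 2 arrays, was at −0.011 with quantile normalization, −0.031 with the brightest probe, −0.0023 with the software's total gene signal, and between −0.037 and 0.063 with each array left out. Apart from the arrays left out and the shift of the median, the cause was not tested. With no detection filter only the 336 miRNAs above the floor on some array could be fitted. Signal over background is the limit for 96 of the 101 members.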

Other observations

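Other imprinted loci also give miRNAs, and 10 of these were on the array outside the Dlk1-Dio3 domain. miR-483-5p, from an intron of the growth factor gene Igf2, was detected on all 6 arrays, with scaled signals of 91.8, 70.4, 69.6 and 98.7 in controls 1 to 4 and 67.7 and 66.8 in IL-6 1 and 2. The 2 groups did not overlap (as in 34.8% of all fitted miRNAs), with a log2 difference of −0.28 ± 0.17 (SE) and a limma adjusted p of 0.362. miR-483-3p was detected on 1 array. Of the Nespas and Gnas locus, miR-296-5p had a log2 difference of −0.19 ± 0.08 (SE, limma adjusted p 0.241). That of miR-298-5p was −0.24 ± 0.12 (SE, limma adjusted p 0.265). In both, as in miR-483-5p, the 2 IL-6 arrays lay below all controls, which held for 65 (21.7%) of the 299 fitted miRNAs. miR-335-5p and miR-335-3p of Mest, a gene used as a marker of fat cell size, were detected on no array, nor was either arm of miR-675 of H19. Of the 5 imprinted miRNAs outside the members that were fitted, 0 passed the adjusted threshold.

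Of the 13 miRNAs between Dlk1 and Dio3 that are no members, 11 were not detected, miR-432 of the Rtl1 antisense transcript and both arms of miR-1247, which lies beside Dio3, among them.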
